A study of Mus musculus with 8 samples.

Results

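The integrated stress response genes described here were 10 of the 24421 genes counted in single islet cells of mice with and without partial pancreatectomy (PPTx): Atf4, Atf5, Ddit3, Trib3, Asns, Psat1, Sesn2, Chac1, Nupr1 and Ppp1r15a. They were chosen by name, as Atf4 with well-known members and targets of its pathway, and all 10 had a column in each of the 8 count tables. Islets came from 8-week-old male C57BL/6J mice, of which 4 samples were taken 2 days after removal of 50% of the pancreas and 4 control samples came from mice that had no operation. Each sample pooled the islets of 1 to 3 mice, so the control group differed from PPTx by the whole operation, and surgery and tissue loss cannot be told apart.

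The integrated stress response starts with kinases that phosphorylate the translation factor eIF2α, among them PERK (Eif2ak3), which senses unfolded protein in the endoplasmic reticulum, and GCN2 (Eif2ak4), which senses uncharged tRNA. General translation then falls while ATF4, whose mRNA carries upstream open reading frames, is translated more, so that the level of Atf4 mRNA does not give the level of the protein. ATF4 induces genes for amino acid supply and redox balance, further transcription factors, and feedback genes that end the response. In β cells the response is well known because proinsulin synthesis loads the endoplasmic reticulum, alongside the ATF6 and XBP1 arms that raise chaperones.

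ATF4 pairs with C/EBP proteins on a composite element, searched here as TGATGNAA on both strands in RefSeq promoters (250 bases before to 50 after a start, build GRCm38.p6). All 10 genes matched, with 12 promoters. The element was present in promoters of 4 of the 10 genes, Asns, Chac1, Nupr1 and Trib3, and in 3.97% of all 32851 promoters. The stricter form TGATGCAA was present in Chac1 and Nupr1 and in 0.895% of all promoters. The matches are shown with their surroundings, read 5′ to 3′ on the strand of the gene, with the element in capitals, because these 4 genes are the members whose windows carry the letters of the pathway's own factor.
Chac1, chr2:119351038-119351067, plus strand: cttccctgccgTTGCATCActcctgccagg
Trib3, chr2:152344028-152344057, minus strand: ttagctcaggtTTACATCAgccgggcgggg
Asns, chr6:7693214-7693243, minus strand: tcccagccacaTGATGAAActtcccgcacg
Nupr1, chr7:126625562-126625591, minus strand: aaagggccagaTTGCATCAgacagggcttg
The element lay at -193 to -186 from the start in Chac1, at -110 to -103 in Nupr1 and at -23 to -16 in Asns, all upstream, and at 15 to 22 within the transcript in Trib3. A match is a description of letters and no measure of binding, and the other 6 genes had no match in this window.

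Cells were sorted into classes by their most abundant hormone message (insulin, Gcg, Ppy, Sst or Ghrl), provided it had at least 2 times the unique molecular identifiers (UMIs) of the next. Of 1240 deposited cells 1232 passed the limits on genes and UMIs. Of these 952 were insulin-dominant (375 control, 577 PPTx), 130 Ppy-dominant (32 and 98), 114 Gcg-dominant (95 and 19) and 13 Sst-dominant, and 22 were mixed and 1 led by Ghrl. Total UMIs per sample ranged from 236645 to 1580152 and median UMIs per cell from 3328 to 8677. Levels are given as CPM, the UMIs of a gene per 1000000 UMIs outside the hormone genes, summed over the cells of a class in a sample. All cells together held 2323135 such UMIs in the insulin-dominant, 282268 in the Ppy-dominant and 250541 in the Gcg-dominant class. Samples with fewer than 5 cells of a class were left out of levels and tests by sample, namely control replicate 1 for Ppy and PPTx replicates 1 and 4 for Gcg, but pooled levels, UMI numbers and shares of cells include them. The names were borne out by marker genes: 7 β-cell genes summed to 9494 ± 1383 CPM (SD, n = 8) in insulin-dominant cells against 470 ± 215 (SD, n = 7) in Ppy-dominant cells, although Mafa held almost no UMIs, and 6 α-cell genes were highest in Gcg-dominant cells at 74883 ± 9645 CPM (SD, n = 6). Markers of immune cells were at 0 in Ppy- and Gcg-dominant cells, and the endothelial markers Pecam1 and Cdh5 were at 0 in all 3 classes. The endothelial markers Kdr, Plvap and Esam had 2, 4 and 16 UMIs in insulin-dominant cells. The ductal marker Spp1 had a pooled level of 574 CPM in Ppy-dominant, 88.2 CPM in insulin-dominant and 87.8 CPM in Gcg-dominant cells. A single cell barcode occurred in more than 1 sample.

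In insulin-dominant cells the transcripts of the pathway spanned a wide range of levels. Atf4 was the most abundant at 438 ± 110 CPM (SD, n = 8), followed by Atf5 at 346 ± 86.3 and Asns at 203 ± 25.3. Nupr1 (87.0 ± 54.1), Ppp1r15a (75.7 ± 21.0) and Ddit3 (55.5 ± 7.85) formed a middle group whose spreads overlapped. Chac1 (33.4 ± 33.1) and Psat1 (13.8 ± 12.4) were low, and Trib3 (6.67 ± 6.69) and Sesn2 (1.60 ± 1.98) rested on 11 and 4 UMIs in all. Spread between samples was not in proportion to level: Asns and Ddit3 varied little, whereas Nupr1 and Chac1 varied several-fold between samples of 1 group.

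Transcription factors of the pathway did not separate the operated from the control samples. Atf4 measured 573, 532, 459 and 286 CPM in insulin-dominant cells of control replicates 1 to 4 and 335, 452, 544 and 327 CPM in PPTx replicates 1 to 4. The ranges overlapped almost completely, and the log2 fold change was -0.06 (SE 0.20, 95% interval -0.46 to 0.34, adjusted p = 0.955, edgeR). Atf5, a close relative of Atf4 whose mRNA also carries upstream open reading frames, measured 392, 525, 334 and 283 CPM in controls and 243, 324, 300 and 369 CPM after PPTx. Its log2 fold change was -0.25 (SE 0.19, interval -0.63 to 0.13, adjusted p = 0.733). Ddit3, which encodes CHOP, a factor of the late and pro-apoptotic phase, lay between 50.4 and 69.9 CPM in controls and between 44.7 and 58.0 CPM after PPTx, with a log2 fold change of -0.10 (SE 0.29). Nupr1, a small stress-induced chromatin protein, was the most variable of this group. It measured 168, 31.3, 93.6 and 46.0 CPM in controls and 52.9, 52.1, 83.2 and 169 CPM after PPTx, so that each group had 1 sample about as high as the other's highest, and the log2 fold change was 0.17 (SE 0.39, interval -0.59 to 0.92).

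Genes of amino acid supply were Asns, which was flat, and Psat1, whose groups did not overlap but which was not called across all genes. Asns, which makes asparagine, was the steadiest gene of the pathway, at 238, 206, 197 and 194 CPM in controls and 162, 186, 205 and 237 CPM after PPTx, with a log2 fold change of -0.03 (SE 0.19, interval -0.40 to 0.34). Psat1, the transaminase of serine synthesis, measured 0, 0, 4.80 and 6.57 CPM in control replicates 1 to 4 and 31.7, 24.2, 22.2 and 21.1 CPM in PPTx replicates 1 to 4. Every PPTx sample was above every control sample, 2 controls had no UMI at all, and the means were 2.84 ± 3.36 and 24.8 ± 4.80 CPM (SD, n = 4 each). The exact two-sided permutation test over samples gave p = 0.0286, which is the smallest this design allows, and is not adjusted for the 10 genes. After thinning every cell to the same number of UMIs it was 0.0571, past the threshold no longer. A separation of this kind, PPTx above control, was seen in 269 of 10681 genes with at least 10 UMIs, or 2.52%. Psat1 was below edgeR's own limit on low counts, and when all genes with at least 10 UMIs were fitted its log2 fold change was 2.50 (SE 0.65) with an unadjusted p of 4.85e-04 and an adjusted p of 0.115, rank 45 of the 10681 genes, of which 0.187% were called. It was therefore not called at 0.05 across all genes. The whole difference rests on 4 UMIs in controls and 34 after PPTx.

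Replicating cells held a large part of the Psat1 transcripts, as was seen after the values were known. Cells with at least 2 UMIs of 10 replication markers such as Top2a and Mki67 numbered 41 of the 952 insulin-dominant cells, 10 control and 31 PPTx. They held 14 of the 38 Psat1 UMIs, a pooled level of 111 CPM against 10.9 CPM in the other 911 cells, a ratio of 10.1 (exact 95% interval of counting error 4.84 to 20.4). Of all 10671 genes with at least 10 UMIs, the replication markers aside, 2.77% were at least 5-fold higher in replicating cells. Within samples Psat1 was higher in the replicating cells in 5, lower in 1 (PPTx replicate 4) and at 0 in both kinds of cell in 2 of the 8 samples, and the exact two-sided sign-flip test gave p = 0.0625 with 0.0312 as the smallest possible. The 14 UMIs came from 7 cells, 1 of which, in PPTx replicate 1, held 5, and the interval treats UMIs as independent. Without that cell the ratio was 6.84 (2.80 to 15.2), higher in 4 and lower in 2 of the 8 samples, and the exact sign-flip p was 0.156. Outside the replicating cells Psat1 measured 0, 0, 0 and 3.39 CPM in controls and 15.2, 22.2, 12.1 and 21.6 CPM after PPTx. The groups remained apart there, with means of 0.848 ± 1.70 and 17.8 ± 4.91 CPM (SD, n = 4 each), 1 UMI against 23, and the same smallest exact p of 0.0286. Nupr1 went the other way in replicating cells, with 1 UMI (7.90 CPM) against 174 (79.2 CPM), a ratio of 0.0998 (exact 95% interval of counting error 0.00251 to 0.563). Within samples Nupr1 was lower in 8 of 8, and the exact two-sided sign-flip test gave p = 0.00781, the smallest possible. Shallow sums favour that outcome, since the replicating cells of control replicate 1 held 1229 UMIs in all, so little is read from it. A level at least 5-fold lower in the replicating cells was seen in 9.58% of genes, and 3 of the 8 samples had 1 to 3 replicating cells, in which a gene at the level of Nupr1 gives few UMIs. Atf4 (419 against 431 CPM), Atf5 (340 against 326 CPM) and Asns (206 against 196 CPM) had pooled ratios whose 95% intervals included 1, as did the other 5 genes.

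**Figure D1:**
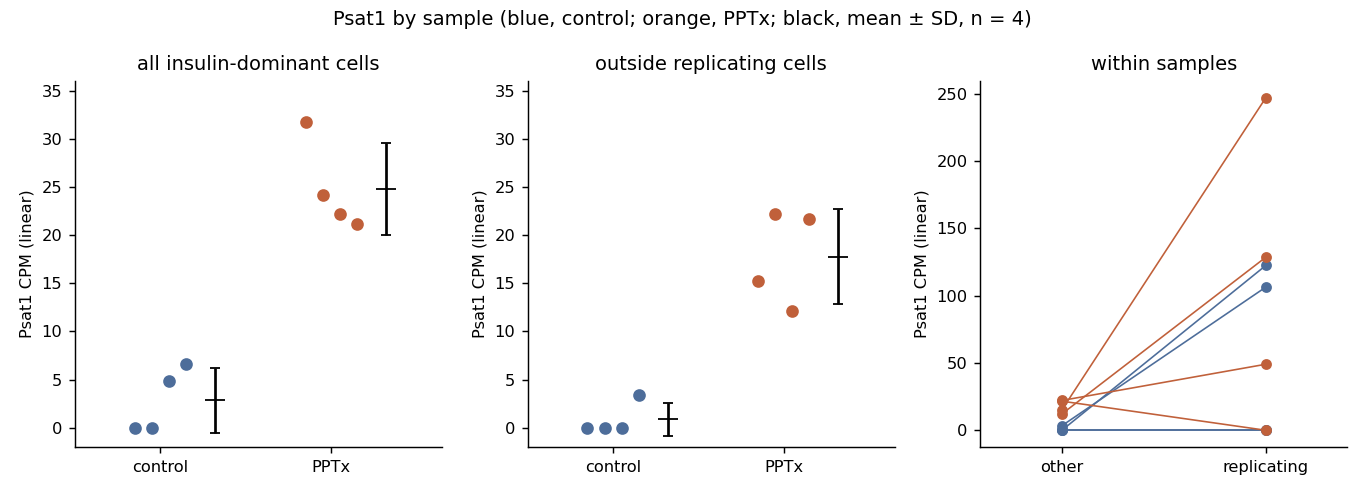
Psat1 CPM by sample on linear axes, in all insulin-dominant cells (left), outside replicating cells (middle) and within samples in replicating against other cells (right, 1 line per sample). The 4 PPTx samples sit between 21.1 and 31.7 CPM at the left and between 12.1 and 22.2 CPM in the middle, above every control sample in both.

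Feedback and redox genes did not pass a test. Ppp1r15a, which encodes GADD34, the subunit that directs a phosphatase to eIF2α and so ends the response, measured 69.9, 113, 74.4 and 52.6 CPM in controls and 102, 68.9, 66.6 and 58.0 CPM after PPTx, with a log2 fold change of 0.01 (SE 0.28). Chac1, which degrades glutathione, measured 97.9, 68.8, 21.6 and 9.86 CPM in controls and 14.1, 29.8, 24.96 and 0 CPM after PPTx. Control replicates 1 and 2 were high and the other 2 controls lay among the PPTx samples, and the difference between the means of 49.5 and 17.2 CPM was not past the threshold in the exact permutation test (p = 0.257) or in edgeR with the lower limit on counts (log2 fold change -0.73, SE 0.54, adjusted p = 0.799). The pseudokinase gene Trib3 had 5 UMIs in controls and 6 after PPTx, and Sesn2, an inhibitor of mTORC1 signalling, had 2 in each group, which is too few to show a difference.

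In all, 6 of the 10 genes reached the edgeR test of PPTx against control in insulin-dominant cells and 0 were called, 0 also at an unadjusted p under 0.05 and 0 with DESeq2, against 18 of all 5789 genes tested (0.311%) and 9.73% at an unadjusted p under 0.05. Their median log2 fold change was -0.04, beside -0.01 for all genes. In simulated counts of this comparison 93.3% of tested genes with a log2 change of 1.5 were recovered, so the intervals above and not that figure give what smaller changes remain possible. Libraries differed in other cells' markers: stellate markers summed to 659 CPM in insulin-dominant cells of PPTx replicate 4 and 274 CPM in PPTx replicate 2 against 62.4 CPM or less in the others, and acinar markers to 317 CPM in PPTx replicate 4 against 59.6 CPM or less. PPTx replicate 1 was highest in ductal markers, at 359.7 CPM against 164 CPM in control replicate 4 and 63.3 CPM or less in the others, and in immune markers, at 282 CPM against 74.4 CPM or less. PPTx replicate 4 was also the PPTx sample highest in Nupr1, and PPTx replicate 1 the sample highest in Psat1, and the part of these cells in either level was not tested.

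**Figure D2:**
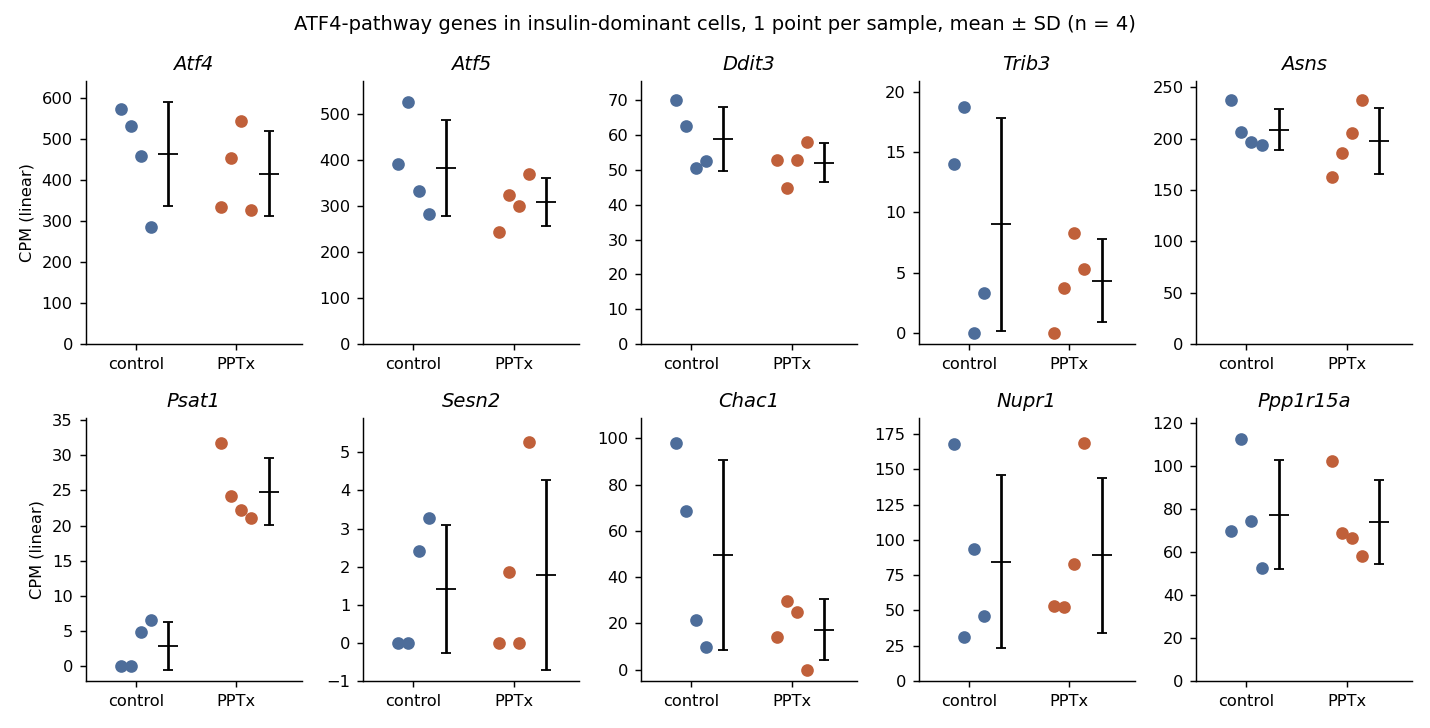
CPM of the 10 genes in insulin-dominant cells of each control and PPTx sample, on a linear axis of its own for each gene, with the mean and SD of 4 samples beside the points. Psat1 is the only one of the 10 whose groups do not overlap.

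Of the wider pathway, the list of the ATF6 and XBP1 arm held the genes called after PPTx in the edgeR fit of all samples. The lists were not tested against each other. Of 7 genes of the eIF2α step 4 were tested and 0 called, and their median log2 fold change was 0.30; Eif2ak3, the PERK kinase, measured 46.6 ± 21.3 CPM in controls and 66.1 ± 18.7 CPM after PPTx (SD, n = 4 each; log2 fold change 0.48, SE 0.32). Of 27 further ATF4 targets 13 were tested, with 0 called, 2 at an unadjusted p under 0.05 and a median of -0.15, and the autophagy receptor gene Sqstm1 had a log2 fold change of 0.29 (SE 0.16). All 13 aminoacyl-tRNA synthetase genes of the list were tested, with 0 called, 0 at an unadjusted p under 0.05 and a median of 0.09. Immediate early and heat shock genes, a sign of tissue dissociation, gave 0 of 9 called, 3 at an unadjusted p under 0.05, 8 of 9 above 0 and a median of 0.51. DESeq2 called 0 genes of these 4 lists. Of the ATF6 and XBP1 arm 3 of 13 tested genes rose and 0 fell, where 0.173% of all genes were called higher, with a median of 0.57 and 12 of 13 above 0. Sdf2l1, a partner of the chaperone BiP, rose from 389 ± 119 to 830 ± 130 CPM (SD, n = 4 each; log2 fold change 1.05, SE 0.18, adjusted p = 0.00880, edgeR). Creld2 rose by 1.04 on the log2 scale (SE 0.19, adjusted p = 0.0136) and the disulfide isomerase gene Pdia6 by 0.68 (SE 0.14, adjusted p = 0.0231). Without PPTx replicate 1, control replicate 1 or control replicate 2 in turn 0 of the 13 were called, where calls over all genes were 1, 1 and 2 in place of 18, while the median of the list stayed between 0.49 and 0.64, and DESeq2 called 5 of its genes. With thinned cells 1 was called, Hspa5, the gene of BiP. The list was included with earlier results of these data known, so its direction is no independent evidence.

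Insulin-dominant cells held more Atf5 and Asns than either other class, measured within the same samples. Atf5 was 340 ± 91.1 CPM in insulin-dominant and 46.1 ± 34.3 CPM in Ppy-dominant cells (SD, n = 7), lower in 7 of 7 samples, as were 7.92% of 10915 genes, with a log2 fold change of -2.87 (SE 0.33, adjusted p = 2.35e-16, edgeR with the sample as a block). Its values in Ppy-dominant cells were 86.1, 94.8 and 31.3 CPM in control replicates 2 to 4 and 19.3, 43.0, 48.1 and 0 CPM in PPTx replicates 1 to 4, all below the lowest insulin-dominant value of 243 CPM. In Gcg-dominant cells Atf5 was 32.1 ± 25.4 CPM against 360 ± 89.5 CPM in insulin-dominant cells of the same 6 samples, a log2 fold change of -2.86 (SE 0.38, adjusted p = 1.03e-12), lower in 6 of 6, as were 12.2% of 10570 genes. Atf5 passed edgeR's limit on counts through its insulin-dominant sums. Pooled over cells, with no such limit, its levels in Ppy- and Gcg-dominant cells were 13.0% (exact 95% interval of counting error 6.70 to 22.9%) and 13.5% (6.69 to 24.2%) of the insulin-dominant level, from 12 and 11 UMIs. The β-cell genes G6pc2 (4.34% in Ppy- and 3.43% in Gcg-dominant cells), Ucn3 (1.22% and 1.37%) and Slc2a2 (2.95% and 4.66%) had smaller shares left, and the transcription factor gene Nkx6-1 28.97% and 5.63%, in Ppy-dominant cells above that of Atf5. Transcripts free in the suspension can give UMIs in any droplet, and their part in the Atf5 level was not tested.

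Asns was 198 ± 22.8 CPM in insulin-dominant and 75.5 ± 35.4 CPM in Ppy-dominant cells (SD, n = 7), lower in 7 of 7 samples, with a log2 fold change of -1.16 (SE 0.31, adjusted p = 0.00109). It too passed the limit through its insulin-dominant sums, and its pooled levels were 45.1% (28.9 to 67.5%) of the insulin-dominant level in Ppy- and 46.8% (29.4 to 71.1%) in Gcg-dominant cells. In Gcg-dominant cells it was 0, 156, 57.3 and 175 CPM in control replicates 1 to 4 and 52.8 and 95.7 CPM in PPTx replicates 2 and 3, each below its own insulin-dominant value. The log2 fold change there was -0.92 (SE 0.35, adjusted p = 0.0273), a call that was lost with DESeq2 (adjusted p = 0.124) and when PPTx replicate 2, PPTx replicate 3, control replicate 1 or control replicate 3 was left out (adjusted p 0.0536, 0.0530, 0.0504 and 0.383). In these fits the log2 fold change of Asns was -0.865 with DESeq2 and -0.865, -0.892, -0.848 and -0.498 without those replicates in turn. Atf4 itself was less uneven. It measured 129, 474 and 282 CPM in Ppy-dominant cells of control replicates 2 to 4 and 502, 408, 264 and 0 CPM in those of PPTx replicates 1 to 4, lower than in insulin-dominant cells in 5 of 7 samples. Its log2 fold change was -0.32 (SE 0.19, interval -0.70 to 0.05, adjusted p = 0.197), and -0.05 (SE 0.21, interval -0.46 to 0.36) in Gcg-dominant cells. The Ppy-dominant difference passed the threshold without PPTx replicate 1 (-0.55, adjusted p = 0.0385), with no limit on counts (-0.68, adjusted p = 0.00983) and with the lower limit (-0.69, adjusted p = 0.00597), under which 11.4% of all genes were called lower, a setting that also moved the median of all genes by -0.36.

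The rarer stress genes had most of their UMIs in insulin-dominant cells, which also held most of the sequence depth. Nupr1 had 175 UMIs in insulin-dominant cells, 1 in Ppy-dominant and 0 in Gcg-dominant cells. Its pooled level in Ppy-dominant cells was 4.70% of the insulin-dominant level (exact 95% interval of counting error 0.118 to 26.6%), and in Gcg-dominant cells the interval was 0 to 19.8%. Nupr1 reached 10 UMIs only through the insulin-dominant cells, and no test is given. Chac1 had 59 UMIs in insulin-dominant cells, 0 in Ppy-dominant cells (interval 0 to 53.1% of the insulin-dominant level) and 2 in Gcg-dominant cells (3.72 to 119%), and likewise no test is given. Ddit3 measured 32.4 ± 17.8 CPM in Ppy- against 53.4 ± 5.66 CPM in insulin-dominant cells (SD, n = 7), from 9 and 121 UMIs, a pooled level of 61.2% (27.3 to 120%), again with no test. Psat1 had 2 UMIs in Ppy-dominant cells, both after PPTx, and 1 in Gcg-dominant cells, also after PPTx. PPTx samples held 203845 of the 282268 Ppy-dominant and 49693 of the 250541 Gcg-dominant UMIs outside the hormone genes. Nothing is read from so few Psat1 UMIs. Trib3 and Sesn2 had none in either class, with upper 95% limits above their insulin-dominant level (328% and 369% for Trib3 in Ppy- and Gcg-dominant cells), so that no difference was detectable.

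Ppp1r15a differed in direction between samples. It measured 129, 47.4 and 31.3 CPM in Ppy-dominant cells of control replicates 2 to 4 and 270, 193, 96.2 and 57.3 CPM in those of PPTx replicates 1 to 4, higher than in insulin-dominant cells in 4 of 7 samples (118 ± 87.3 against 76.5 ± 22.5 CPM, SD, n = 7; exact sign-flip p = 0.281). Pooled over cells the level in Ppy-dominant cells was 207% of that in insulin-dominant cells (95% interval of counting error 145 to 291%), a figure in which PPTx replicates 1 and 2 weigh most with 32 of 43 UMIs. Left out of edgeR's test by its limit on low counts, it entered that test and was called higher when control replicate 3, control replicate 4 or PPTx replicate 4 was left out (log2 fold change 0.997, 0.98 and 0.92, adjusted p = 0.0109, 0.0145 and 0.0195) and when hormone genes were kept (0.88, adjusted p = 0.0220), but not in the fit of all genes with at least 10 UMIs (0.52, SE 0.32, adjusted p = 0.302). In Gcg-dominant cells it was 506 CPM in control replicate 1, from 4 UMIs, and between 0 and 73.7 CPM in the other 5 samples.

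**Figure D3:**
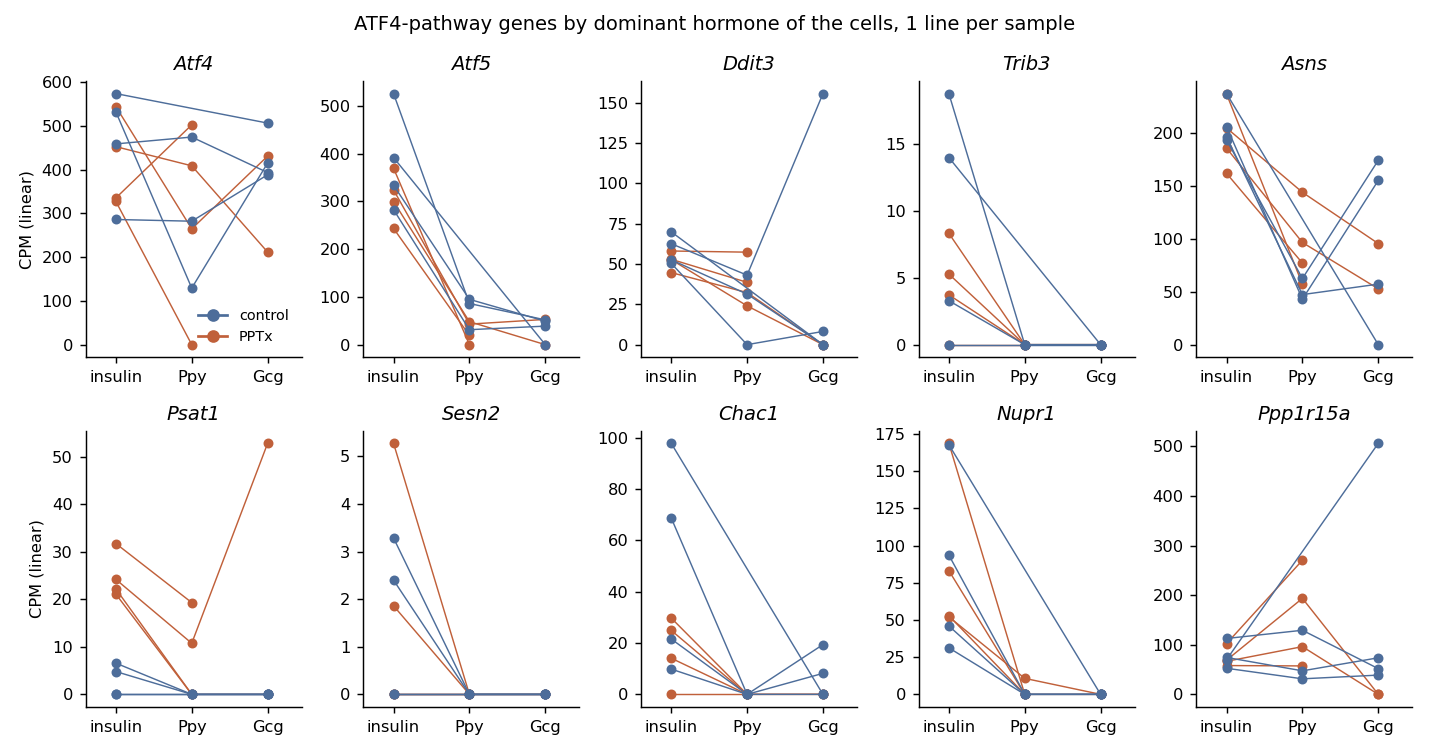
CPM of the 10 genes in insulin-, Ppy- and Gcg-dominant cells, 1 line per sample with at least 5 cells of the class, on a linear axis of its own for each gene. Atf5, Asns and Nupr1 lie lower in Ppy- and Gcg-dominant cells in every sample drawn, Atf4 does not. For Nupr1, with 1 UMI in Ppy- and 0 in Gcg-dominant cells, shallow sums favour that outcome and no test is given.

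Of the 10 genes 3 reached the edgeR test in each of the 2 class comparisons, Atf4, Atf5 and Asns, and since Atf5 and Asns entered through the class where they are high, nothing is read from how many of the 3 were called. Of all genes tested 17.2% of 2891 were called lower in Ppy-dominant and 21.3% of 2193 in Gcg-dominant cells. Genes of the lists below could also enter through their insulin-dominant sums, and the lists were not tested against each other. In the ATF6 and XBP1 arm 11 of 13 tested genes fell in Ppy-dominant cells (median log2 fold change -1.17) and 11 of 12 in Gcg-dominant cells (median -1.53), beside medians of -0.03 and -0.08 for all genes. Sdf2l1 measured 658 ± 241 CPM in insulin- and 98.7 ± 54.2 CPM in Ppy-dominant cells (SD, n = 7; log2 fold change -2.72, SE 0.24, adjusted p = 4.71e-29), and Edem1, which directs misfolded protein to degradation, was lower by a log2 fold change of -2.47 (SE 0.39). Edem1 had 10 UMIs in Ppy-dominant against 454 in insulin-dominant cells, and could enter the test through the latter. Of the tRNA synthetases 5 of 8 tested fell and 1 rose in Ppy-dominant cells, and 4 of 6 fell and 0 rose in Gcg-dominant cells. The 4 called lower in Gcg-dominant cells, Wars, Aars, Nars and Sars, held 10, 11, 17 and 25 UMIs there. In insulin-dominant cells these genes held 441, 321, 452 and 712 UMIs, and they could enter the test through that class. Sars, the seryl-tRNA synthetase gene, had log2 fold changes of -1.53 (SE 0.27) and -1.43 (SE 0.31), and Wars, the tryptophanyl-tRNA synthetase gene, -1.34 (SE 0.32) and -1.98 (SE 0.44). Without control replicate 3, the sample with the most Gcg-dominant cells, only 2 synthetase genes were tested in that class and 1 was called, and DESeq2 called 2 of the 6. With thinned cells 3 of 3 tested synthetase genes were called lower in Ppy- and 1 of 2 in Gcg-dominant cells, and the 1 that rose, Eprs, was not called there or without PPTx replicate 2.

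The further ATF4 targets did not move as a group. In Ppy-dominant cells 1 of 10 tested rose and 1 fell, with a median of -0.08: Ddit4, an inhibitor of mTORC1, rose from 91.2 ± 29.1 to 218 ± 120 CPM (SD, n = 7; log2 fold change 1.32, SE 0.28, adjusted p = 2.34e-05), and the mitochondrial folate enzyme gene Mthfd2 fell (log2 fold change -1.39, SE 0.38, adjusted p = 0.00170). In Gcg-dominant cells 1 of 7 rose, the amino acid transporter subunit gene Slc3a2 (log2 fold change 0.81, SE 0.24), and 2 fell, Mthfd2 (log2 fold change -1.32, SE 0.46) and Herpud1 (log2 fold change -0.77, SE 0.25). In Gcg-dominant cells Mthfd2 was not called with DESeq2, with hormone genes kept or without control replicate 2, 3 or 4, and Herpud1 not with DESeq2, with a hormone ratio of 5 or without PPTx replicate 2 or 3, while Slc3a2 was called in each of these fits. With thinned cells 3 genes of the list were tested in Ppy- and 2 in Gcg-dominant cells, and 0 were called. Immediate early and heat shock genes, which respond to the dissociation of tissue, went the other way: 8 of 8 tested were called higher in Ppy-dominant cells (median 2.15) and 5 of 6 in Gcg-dominant cells (median 2.40), where 14.1% and 14.7% of all genes were. The 13 genes of that list summed to 6118 ± 3244 CPM in Ppy-dominant cells (SD, n = 7) and 5821 ± 2447 CPM in Gcg-dominant cells (SD, n = 6), against 1373 ± 647 CPM in insulin-dominant cells (SD, n = 8). Their part in the class differences was not tested.

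**Figure D4:**
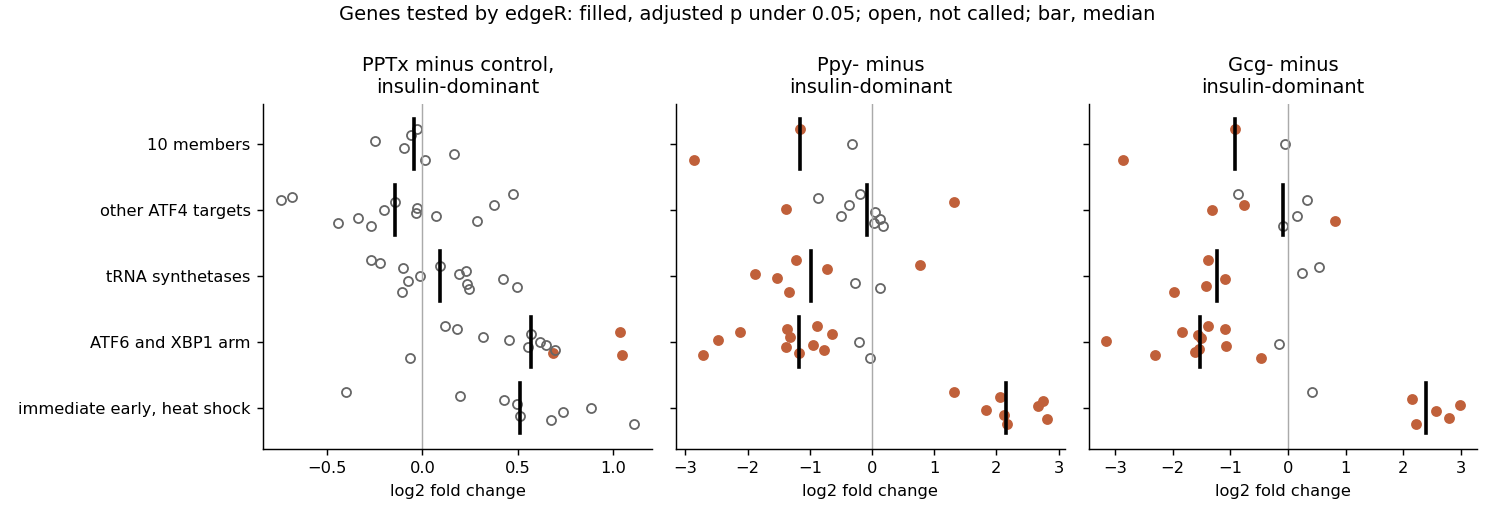
Log2 fold change of every gene tested by edgeR in each list, for PPTx minus control in insulin-dominant cells, Ppy- minus insulin-dominant cells and Gcg- minus insulin-dominant cells; filled points were called at an adjusted p under 0.05 and bars are medians. In both class comparisons the ATF6 and XBP1 arm lies to the left of 0 and the immediate early list to the right, while the further ATF4 targets are spread around 0.

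The response to PPTx could be tested in 1 further class. In Ppy-dominant cells (3 control, 4 PPTx samples) Atf4 alone reached the edgeR test, with a log2 fold change of 0.28 (SE 0.50, interval -0.71 to 1.27, adjusted p = 0.962), and 0 of 592 genes were called (0%), with 39 at an unadjusted p under 0.05 (6.59%) and 0 with DESeq2. Ppp1r15a had means of 69.3 ± 52.5 CPM in 3 controls and 154 ± 96.2 CPM in 4 PPTx samples (SD), and the groups overlapped (exact permutation p = 0.257; log2 fold change 1.49, SE 0.68, adjusted p = 0.969 with edgeR's lower limit on counts). Asns measured 43.1, 47.4 and 62.7 CPM in controls and 77.2, 96.7, 144 and 57.3 CPM after PPTx (exact permutation p = 0.114). Of the other lists in Ppy-dominant cells 0 of 8 tested genes of the ATF6 and XBP1 arm, 0 of 6 early genes and 0 of 2 further ATF4 targets were called. The difference of the PPTx effect between Ppy- and insulin-dominant cells was tested for 5 of the 10 genes and was past the threshold for 0, where 0 of all 4264 genes were called (0%), with 242 at an unadjusted p under 0.05 (5.68%). Ppp1r15a had the lowest p of the 5, with a difference of 1.50 (SE 0.78, unadjusted p = 0.0551, adjusted p = 0.854). In simulated counts this test recovered 19.8% of genes with a log2 change of 1.5, so it could miss most differences of that size. Gcg-dominant cells had 2 PPTx samples with enough cells and were not tested, and the 13 Sst-dominant cells held 5 UMIs of Atf4, 2 of Atf5, 1 each of Ddit3 and Ppp1r15a and 0 of the other 6.

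Single cells were compared after thinning each to 1000 UMIs outside the hormone genes, which left out 114 shallower cells (33 control, 81 PPTx). Of 851 insulin-dominant cells 34.0% then had a UMI of Atf4 (exact binomial 95% interval 30.8 to 37.3%), 26.1% of Atf5 (23.2 to 29.2%) and 16.6% of Asns (14.1 to 19.2%), against 55.9, 42.1 and 33.4% of the 952 cells before thinning. Atf5 was seen in 5.93% of 118 Ppy-dominant (2.42 to 11.8%) and 4.42% of 113 Gcg-dominant cells (1.45 to 10.02%). Of 2 β-cell genes, Ucn3 was seen in 67.3% of insulin-dominant and in 1.69 and 1.77% of the same Ppy- and Gcg-dominant cells, below the share of Atf5, and the more abundant G6pc2 in 95.1% and in 22.03 and 17.7%, above it. Whether the Atf5 share exceeds a background of free transcripts was therefore not settled by these values. Atf4 was seen in 30.5 and 32.7% of the Ppy- and Gcg-dominant cells, near its share in insulin-dominant cells. Asns was seen in 13.56% of the Ppy-dominant (7.953 to 21.08%) and 9.735% of the Gcg-dominant cells (4.96 to 16.75%). Both Asns intervals overlapped that of insulin-dominant cells, so thinned shares did not separate the classes for this gene. The intervals cover counting error only. Nupr1 stood out by its concentration: it was seen in 5.41% of thinned insulin-dominant cells, but the 25 cells with 3 or more UMIs held 56.0% of its 175 UMIs before thinning, whereas Ddit3 and Ppp1r15a, with 121 and 171 UMIs, had 1 and 5 such cells with 3.31 and 9.36%. Chac1 was seen in 3.78% of control and 1.38% of PPTx cells and Psat1 in 0.291 and 1.78%, after thinning.

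**Figure D5:**
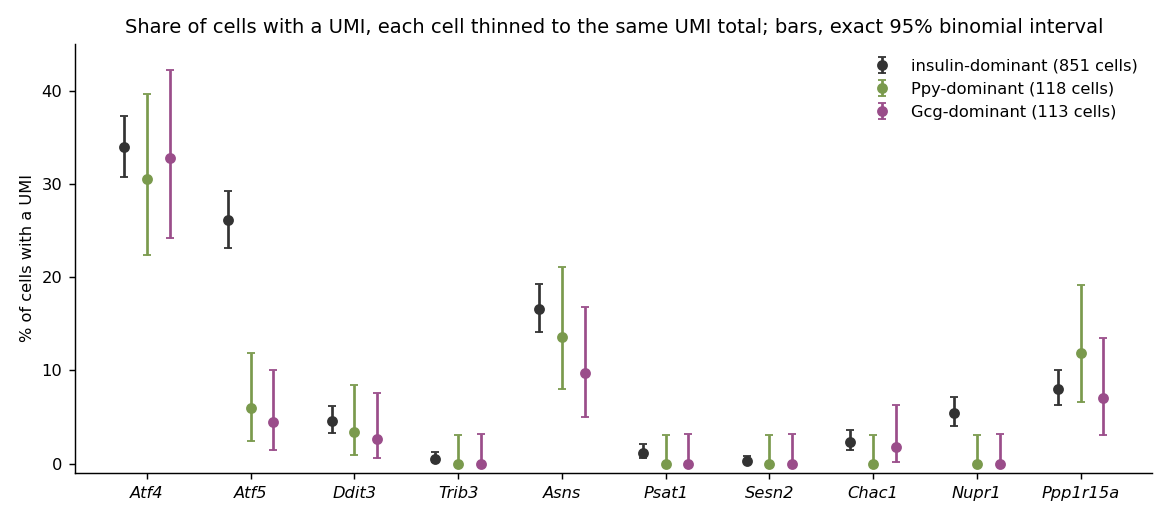
Percent of insulin-, Ppy- and Gcg-dominant cells with at least 1 UMI of each gene after thinning to 1000 UMIs, with exact 95% binomial intervals of counting error. Atf5 falls from 26.1% in insulin-dominant cells to 5.93 and 4.42% in the other 2 classes, while Atf4 stays between 30.5 and 34.0%. The Asns intervals of the other 2 classes overlap that of insulin-dominant cells.

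Levels across the 21 sums of sample and class (log2 of CPM plus 10, 4418 genes compared) gave the genes most like the 3 members with most UMIs. Wsb2 was most like Asns (Pearson r 0.948, and 0.903 over the 8 insulin-dominant sums alone), Ckb most like Atf5 (0.896, but -0.387 within insulin-dominant sums) and Akt1 most like Atf4 (0.868 and 0.619). The sums share libraries and classes, so these values describe the order of levels and carry no test.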

How the data were processed

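Single-cell UMI counts per gene were deposited as 1 table for each of 8 samples (4 control, 4 PPTx); per the labels the authors used Cell Ranger and the build mm10, and how cells were selected before deposit was not given in the sources used here. The labels and the methods name different droplet kits. Limits of 100 to 3000 detected genes and 100 to 20000 UMIs left 1232 of 1240 cells, no doublet caller was run, and no kept cell had fewer than 2005 UMIs. Hormone genes (Ins1, Ins2, Gcg, Sst, Ppy, Pyy, Ghrl, Iapp) were set aside from tests and library sizes. Counts were summed per sample and class and analysed by the quasi-likelihood test of edgeR 4.0.16 after TMM scaling and filterByExpr (Benjamini-Hochberg adjustment over all genes tested, threshold 0.05), with the sample as a block between classes; class comparisons used 7 (Ppy) and 6 (Gcg) samples. Genes below that filter were given exact two-sided permutation or sign-flip tests of CPM and, as an alternative, a fit of all genes with at least 10 UMIs, except that members reaching 10 UMIs through insulin-dominant cells alone were not tested between classes. DESeq2 1.42.0, no TMM, other class rules, thinning and leaving out each replicate were further alternatives. Scripts were tested on simulated data. All 10 genes were named throughout; other genes by list, up to 4 called with the largest fold change, otherwise the 2 with most UMIs. The members and lists were chosen with earlier results of these data known. Samples were separate pools of islets; p-values measure the spread between them.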

Additional observations from a re-analysis of the deposited data

Results flagged for a closer look

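The Ppp1r15a level in Gcg-dominant cells of control replicate 1, 506 CPM, stood far from the other 3 control samples (38.8 to 73.7 CPM), with a gap of 0.925 of the group's range. It rested on 4 UMIs in 6 cells. It was 1 of 26 groups of values examined in this way, and chance marks about 1 group in 20.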

How the results depend on the processing

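Of 699 values under alternatives 39 changed sign, in 10 results, none of which passed the threshold with either sign. The count of genes called for PPTx in insulin-dominant cells, 18, was 7 with thinned cells, 87 with no filter, 34 with a replicate block, and 1 to 20 when single replicates were left out (1 without PPTx replicate 1 or control replicate 1, 2 without control replicate 2); which genes these were is given only for the lists named. In Ppy-dominant cells it was 0, and 3 with the replicate block. The labels do not say that replicate numbers pair the samples, and the pairing check, r over 0.1 in every pair, was not met: deviations of same-numbered samples correlated at 0.0884, 0.0369, 0.0605 and 0.205, against -0.132 to 0.106 (mean -0.033) for the 12 other pairs. As a hint from the data, 6 of 8 samples correlated best with their own number, and in Ppy-dominant cells summed early genes were close within numbers (9567, from 2 cells, and 12069, 6933 and 7503, 5263 and 5795, 2569 and 2694 CPM in control and PPTx replicates 1 to 4), so a weak pairing was not settled by these values. For Ppy- against insulin-dominant cells 905 genes were called, 358 with thinned cells, 1607 with the low filter, 1484 with no filter and 669 to 910 leaving out replicates. For Gcg- against insulin-dominant cells 790 were called, 342 with thinned cells, 1258 with the low filter, 1256 with no filter and 435 to 872 leaving out replicates (435 without control replicate 3). The difference of the PPTx effect between classes gave 0 calls, 1 with the low filter, 1 with no filter and 0 to 2 leaving out replicates. Promoters with the element numbered 4, and 2 with TGATGCAA only. The cause of these changes was not tested, beyond fewer UMIs when thinned and fewer samples when 1 is left out. For Psat1 after PPTx, adjusted p was 0.052 with no filter, 0.0914 with the replicate block and 0.115 with the low filter, and the exact p was 0.0571 after thinning. Its log2 fold change kept its sign at 2.24 to 2.92 without single replicates. DESeq2 gave an unadjusted p of 0.00537 and no adjusted p. The ATF6 and XBP1 arm had 6 genes called after PPTx with the replicate block, against 3 without it. Depth limits Trib3 and Sesn2 in every class and 7 of the 10 genes in the smaller ones. For PPTx in insulin-dominant cells the values that changed sign were those of Asns (0.0058 with thinned cells, 0.030 with replicating cells left out, -0.11 to 0.046 leaving out replicates), Atf4 (-0.25 to 0.028 leaving out replicates), Nupr1 (-0.22 to 0.43), Ppp1r15a (-0.0016 with DESeq2, -0.015 without TMM, -0.12 with the replicate block, -0.074 with replicating cells left out, -0.17 to 0.21 leaving out replicates) and Sesn2 (-4.31 CPM with thinned cells, -0.33 on the log2 scale with no filter, -0.801 to 0.984 CPM leaving out replicates). Atf4 after PPTx in Ppy-dominant cells was -0.22 with the replicate block and -0.0026 to 0.71 leaving out replicates. The values that follow compare a class with insulin-dominant cells. Trib3 in Ppy-dominant cells was 0.15 on the log2 scale with DESeq2. In Gcg-dominant cells Atf4 was 0.078 with thinned cells, 0.0061 with a hormone ratio of 5 and -0.25 to 0.036 leaving out replicates, and Psat1 differed by 0.728 CPM with all genes kept and by -6.71 to 3.45 CPM leaving out replicates. Ppp1r15a there differed by 37.6 CPM, by -42.1 to 58.9 CPM leaving out replicates (-42.1 without control replicate 1), and on the log2 scale by -0.35 with the low filter and with no filter, -0.59 with DESeq2, -0.12 without TMM and -0.27 without the block.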

Other observations

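Ppp1r15a and the summed immediate early and heat shock genes were compared across samples after their values had been seen. In Ppy-dominant cells the sample highest in the early genes, PPTx replicate 1 (12070 CPM), was also highest in Ppp1r15a (270 CPM), and the sample lowest in them, control replicate 4 (2569 CPM), was lowest (31.3 CPM). Pearson's r over 7 samples was 0.944 (exact permutation p = 0.000992, adjusted 0.00198 over the 2 classes examined) and Spearman's rho 0.964 (exact permutation p = 0.00278, adjusted 0.00556). Without PPTx replicate 1 and control replicate 4, the 2 samples farthest from the median, r was 0.804. In insulin-dominant cells r over 8 samples was 0.542 (exact permutation p = 0.160) and rho 0.476 (exact permutation p = 0.243), and r was 0.387 without PPTx replicate 1 and control replicate 1. The permutation p-values treat the samples as independent, although early-gene sums in Ppy-dominant cells were close within replicate numbers and a pairing was not settled. With pairing these p-values would be too small, and the adjustment does not cover the choice of the relation. Both measures come from the same libraries, and the relation was chosen for its appearance, so it is a description of these samples.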
